A study of Homo sapiens with 4 samples.

Results

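The ARF GTPase-activating proteins (ARF GAPs) are enzymes that switch off the small GTPases of the ARF family. Skipped exons of 10 of their genes, ASAP1, ASAP2, ARFGAP1, ARFGAP2, ARFGAP3, GIT1, GIT2, ARAP1, ACAP2 and AGAP3, were compared between MDA-MB-231, an established human triple-negative breast cancer line, and its lung-metastatic derivative MDA-LM2 (LM2). An exon was taken when it lay on the same strand inside 1 of these genes in GENCODE release 29. This gave 47 of the 37641 exons listed for either line, in 51 events, all listed in both lines. Of the 47, 44 belonged to transcripts of the member genes and 3 lay inside the bounds of ARAP1 but belonged to transcripts of STARD10. Both lines were grown untreated in the same medium, each with 2 samples. The deposited tables hold 1 set of values per line and name no replicate. They are taken here as pooled over the samples of a line, which the sources do not state. The spread between replicates could not be computed, and no value below carries a replicate error.

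ARF proteins cycle between a GTP-bound state on membranes, where they recruit coats and lipid-modifying enzymes, and a GDP-bound state. Exchange factors load GTP, and ARF GAPs supply the zinc-finger domain that makes the GTPase hydrolyse it. ARFGAP1, ARFGAP2 and ARFGAP3 act at the Golgi on the COPI coat. ASAP, GIT, ARAP, ACAP and AGAP proteins carry further domains, which link ARF GAP activity to the cell periphery, to endosomes and to focal adhesions, the contacts through which cells hold and move on matrix.

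The level used here is the inclusion level, the share of the isoform that keeps the exon, from 0 (always skipped) to 1 (always kept). It compares the isoforms with and without the exon between the flanking exons of an event, not all of the gene's transcripts. MISO, the program that estimated it, sorts reads by whether they fit the isoform with the exon, the isoform without it, both, or neither, and reads that fit both also enter its estimate. Inclusion and exclusion reads together are called informative reads below. The interval after each level was deposited with it, at a confidence level that the sources used here do not state. Listed events held 68691146 reads in LM2 and 89285093 in parental cells, of which 4701744 and 5529885 were inclusion reads and 955034 and 1101330 exclusion reads. Reads that fit neither isoform were the largest class, at 51324541 and 67568156. Among markers of mesenchymal-like breast cancer cells, CD44, AXL and LGALS1 had at least 268 informative reads at their best covered event in each line, and VIM, MSN and CAV1 had no listed event. Of the luminal or epithelial markers, CDH1, ESR1, PGR and GATA3 had at most 17, KRT8 had 1933 in LM2 and 1643 in parental cells, and EPCAM, KRT18 and KRT19 had no listed event. Of the markers of other cell types, PTPRC had at most 4, CD3E and ALB had 0, and CD68, PECAM1, COL1A1 and COL1A2 had no listed event.

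Exons on which the results below turn are shown first, except the ASAP1 171-nt exon, whose sequence is not shown here. They were read from GENCODE 29 transcripts on the coding strand, 5′ to 3′, with the exon in capitals and 15 bases of each neighbouring exon in lower case. The first set holds exons with a level between 0.1 and 0.9 in at least 1 line. These are the ASAP2 exon at chr2:9391062-9391196 (plus strand), the GIT2 exons at chr12:109945260-109945349 and chr12:109951167-109951316 (minus), the ARAP1 exon at chr11:72692753-72692785 (minus) and the AGAP3 exon at chr7:151139979-151140116 (plus), all in hg38 and all protein-coding.
ASAP2 135-nt exon: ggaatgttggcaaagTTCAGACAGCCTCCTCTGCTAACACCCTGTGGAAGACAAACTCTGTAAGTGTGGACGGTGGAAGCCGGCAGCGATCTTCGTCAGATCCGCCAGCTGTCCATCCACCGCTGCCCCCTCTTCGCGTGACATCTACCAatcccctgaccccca
GIT2 90-nt exon: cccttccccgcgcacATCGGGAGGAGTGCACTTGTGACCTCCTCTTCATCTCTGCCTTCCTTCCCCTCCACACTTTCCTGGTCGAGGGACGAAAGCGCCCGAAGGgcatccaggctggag
GIT2 150-nt exon: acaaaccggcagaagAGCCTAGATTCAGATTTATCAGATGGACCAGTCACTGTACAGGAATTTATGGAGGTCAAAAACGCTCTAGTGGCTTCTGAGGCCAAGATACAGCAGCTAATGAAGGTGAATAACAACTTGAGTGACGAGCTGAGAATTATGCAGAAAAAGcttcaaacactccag
ARAP1 33-nt exon: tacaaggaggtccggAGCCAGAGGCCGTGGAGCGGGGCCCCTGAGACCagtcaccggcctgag
AGAP3 138-nt exon: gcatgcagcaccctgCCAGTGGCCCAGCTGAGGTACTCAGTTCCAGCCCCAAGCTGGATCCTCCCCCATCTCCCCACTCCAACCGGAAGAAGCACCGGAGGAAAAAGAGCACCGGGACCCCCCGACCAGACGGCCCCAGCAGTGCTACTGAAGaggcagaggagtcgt
Each is a multiple of 3 in length, so that keeping or skipping it leaves the downstream reading frame as it was.

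The next set holds short exons that GIT1 and GIT2 carry at matching places, and the shortest exon of ASAP2. They are the GIT1 exon at chr17:29578962-29578988 (minus), the GIT2 exons at chr12:109965760-109965765 and chr12:109967314-109967319 (minus), and the ASAP2 exon at chr2:9336036-9336044 (plus), in hg38. They are shown because their length makes the junctions on either side the main source of reads for them.
GIT1 27-nt exon: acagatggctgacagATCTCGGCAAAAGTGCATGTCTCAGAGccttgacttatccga
GIT2 6-nt exon (a): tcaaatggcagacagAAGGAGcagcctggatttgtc
GIT2 6-nt exon (b): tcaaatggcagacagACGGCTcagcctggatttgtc
ASAP2 9-nt exon: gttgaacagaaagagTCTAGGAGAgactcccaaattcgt
Both GIT2 exons sit between the same flanking exons, and in GIT2-203, which skips them, that junction follows codon 254. In GIT1-201, which skips the 27-nt exon, the junction follows codon 253.

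Exons were counted as tested with at least 10 informative reads in each line and at least 1 inclusion and 1 exclusion read over both lines. An exon was called when the level differed by at least 0.2 and the Bayes factor, the odds of a difference over none in the authors' deposited table, was 10 or more. Of the 44 exons of member transcripts, 24 were tested, of 14109 tested in the whole series. Called higher in LM2 were 2 of the 24 (8.33%), the ASAP1 171-nt and the ASAP2 135-nt exon, and 0 were called lower. Over all tested exons 1.25% were called, 0.921% higher and 0.326% lower. The median difference was 0 in the ARF GAP exons and 0 in all tested exons. Differences of at least 0.1, with no limit on the Bayes factor, were found in 5 exons upward and 2 downward, against 9.48% and 7.07% of all tested exons.

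Inclusion and exclusion reads alone gave no call in these genes. By a two-sided Fisher's exact test on the reads of each table, Benjamini-Hochberg adjusted over 14109 exons and with a read-based difference of at least 0.1, 0 of the 24 passed, against 0.68% of all tested exons (0.361% higher and 0.319% lower). Such a test says only how 2 libraries differ, since each line entered as 1 set of reads, and it covers counting error alone. On simulated reads it missed most changes of 0.2, so the absence of a call does not show that levels were equal. The changed exons there had at least 50 informative reads in each line and read-based levels within 0.2 of the middle of the scale. Exons with fewer reads, such as the ARFGAP2 57-nt exon with 11 in LM2 and 10 in parental cells, were not covered. Neither called exon was covered. The ASAP2 135-nt exon had 47 informative reads in parental cells, and the ASAP1 171-nt exon had read-based levels of 0.915 and 0.953. The simulation thus gives no detection rate for the ARF GAP exons. The smallest adjusted p by Fisher's exact test was 0.356, for the ARAP1 33-nt exon. Unadjusted, 4 of the 24 were below 0.05 by Fisher's exact test, against 7.56% of all tested exons. The 4 were the ARAP1 33-nt, AGAP3 138-nt, ACAP2 105-nt and ARFGAP1 239-nt exons, and neither called exon was among them.

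**Figure D1:**
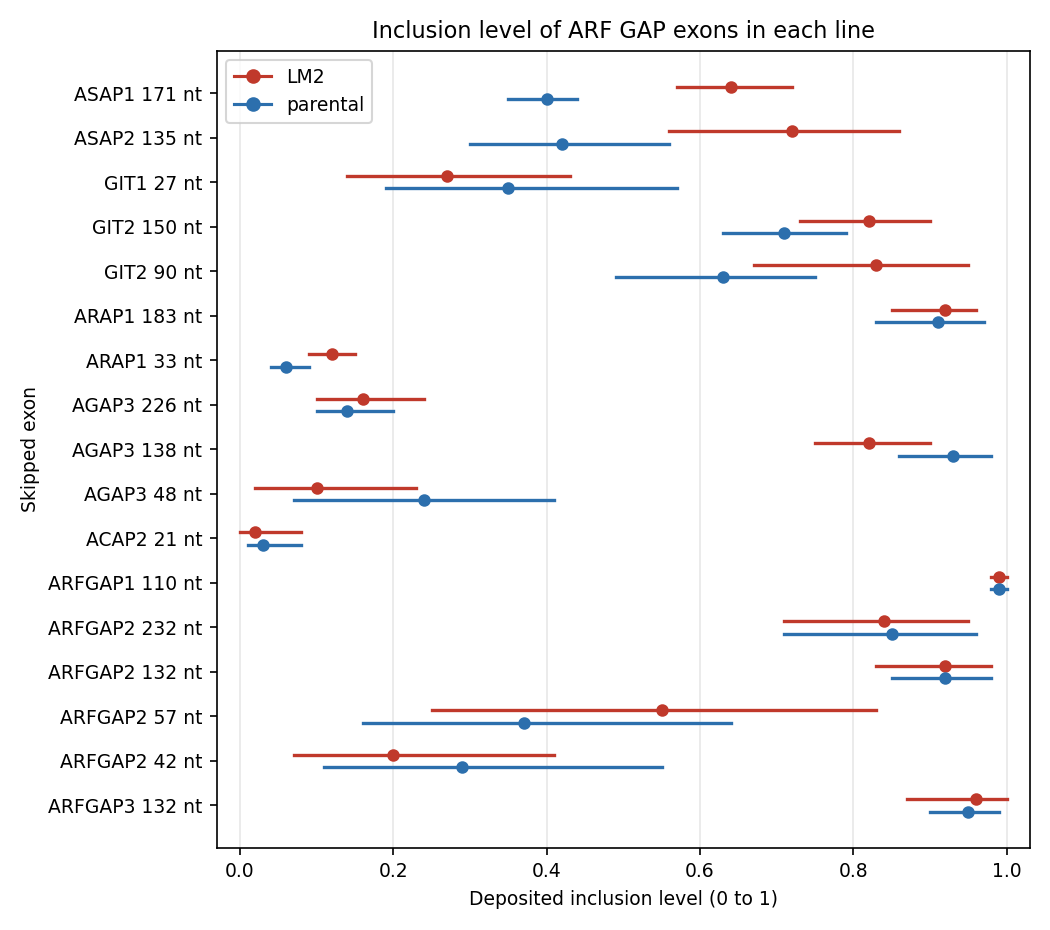
Deposited inclusion level (x axis, 0 to 1) of the 17 named ARF GAP exons (y axis, gene and exon length), with LM2 in red and parental in blue; points are levels and bars the deposited intervals. The ASAP1 171-nt exon was at 0.64 in LM2 and 0.40 in parental cells, with bars that do not overlap, and the ASAP2 135-nt exon was at 0.72 and 0.42, with bars that meet at 0.56.

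ASAP1 and ASAP2 are paralogs with a membrane-bending BAR domain, a PH domain, the ARF GAP domain, ankyrin repeats and a proline-rich stretch followed by an SH3 domain, and they act at focal adhesions and other sites of actin assembly. In both genes the called exon lay in the later part of the coding sequence and had a higher deposited level in LM2. The ASAP1 exon, 171 nt at chr8:130091973-130092143 on the minus strand, is exon 25 of 30 in ASAP1-202 and holds codons 801 to 858 of 1129. It lies between introns of 19950 and 12001 nt. The ASAP2 exon holds codons 795 to 840 of 1006 in ASAP2-201, between introns of 2515 and 2285 nt, and ASAP2-202 skips it and has 961 codons.

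The ASAP1 171-nt exon had a level of 0.64 (0.57 to 0.72) in LM2 and, in parental cells, 0.40 (0.35 to 0.44). Its Bayes factor in the authors' deposited table was at the cap of that file. In LM2, 325 reads fit inclusion, 15 exclusion and 565 both. In parental cells the numbers were 409, 10 and 1316. Parental cells therefore had more reads than LM2 in the class that fits both isoforms, but fewer exclusion reads.

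Different read classes gave different directions for ASAP1. Inclusion reads per read that fit both isoforms were 0.575 in LM2 and 0.311 in parental cells, a ratio of 1.85 (exact 95% interval 1.55 to 2.21, counting error only). The median over all tested exons was 0.311 in LM2 and 0.293 in parental cells. Exclusion reads per both-isoform read were also higher in LM2 for ASAP1, at 0.0265 against 0.0076 in parental cells. Relative to reads that fit both isoforms, inclusion and exclusion reads were thus both more frequent in LM2. Inclusion and exclusion reads alone placed the level at 0.915 in LM2 and 0.953 in parental cells, a difference of -0.04 on a scale of 0 to 1. The odds of inclusion over exclusion reads had a ratio between the lines of 0.530 (exact 95% interval 0.210 to 1.28). The share of reads that MISO assigned to the inclusion isoform differed by 0.286, in the direction of the deposited level.

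In ASAP2 both sources pointed the same way. The 135-nt exon had a level of 0.72 (0.56 to 0.86) in LM2 and, in parental cells, 0.42 (0.30 to 0.56), and the authors' deposited table gave it a Bayes factor of 14.85. It had 51 inclusion, 5 exclusion and 115 both-isoform reads in LM2, and 38, 9 and 185 in parental cells. Inclusion reads outnumbered those of the parental line although LM2 had fewer reads of the both-isoform class. The level from inclusion and exclusion reads was 0.836 in LM2 and 0.679 in parental cells. The odds ratio of 2.40 had an exact 95% interval of 0.657 to 9.87, which includes no difference. Inclusion reads per both-isoform read were 0.443 and 0.205, a ratio of 2.15 (1.30 to 3.60). This call was lost at a Bayes factor limit of 20 and when the intervals had to be apart, and the ASAP1 call was lost with a difference of at least 0.3.

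**Figure D2:**
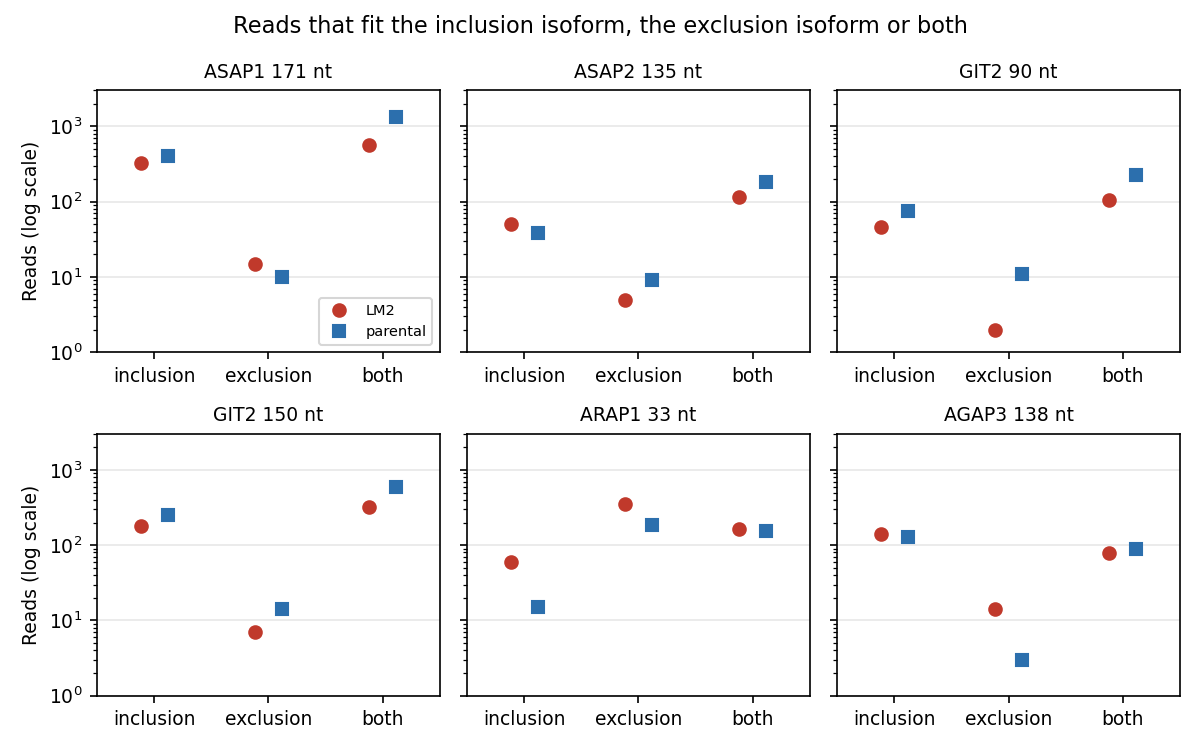
Reads of each class (x axis: inclusion isoform, exclusion isoform, both) on a log scale (y axis, number of reads) for 6 ARF GAP exons, with LM2 as red circles and parental as blue squares. Exclusion reads of ASAP1 numbered 15 in LM2 and 10 in the parental line, and those of ASAP2 5 and 9.

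GIT1 and GIT2 are scaffolds that join an ARF GAP domain to PIX exchange factors, paxillin and PAK kinases at focal adhesions and endosomes. In GIT2, 2 exons were at higher levels in LM2, neither of them called. The 90-nt exon, codons 548 to 577 of 759 in GIT2-203, had a level of 0.83 (0.67 to 0.95) in LM2 and, in parental cells, 0.63 (0.49 to 0.75), with intervals that overlap. Its Bayes factor in the authors' deposited table was 2.18. The reads were 46 for inclusion, 2 for exclusion and 105 for both in LM2, and 75, 11 and 228 in parental cells. The level from inclusion and exclusion reads was 0.920 and 0.773, with an odds ratio of 3.35 (0.685 to 32.4). Exclusion reads were few in LM2, and the interval includes no difference.

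The GIT2 150-nt exon, codons 415 to 464, had a level of 0.82 (0.73 to 0.90) in LM2 and, in parental cells, 0.71 (0.63 to 0.79). It had 178 inclusion, 7 exclusion and 319 both-isoform reads in LM2, and 254, 14 and 599 in parental cells. The odds ratio was 1.40 (0.516 to 4.19). Measured with other flanking exons, the same exon had a level of 0.99 in LM2 and 0.98 in parental cells, with 0 exclusion reads in either. The level of this exon thus depended on the flanking exons with which it was measured, in both lines. The GIT2 134-nt exon was at 0.99 in both lines.

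GIT1 had 1 listed exon, the 27-nt exon of codons 254 to 263 in GIT1-203. Its level was 0.27 (0.14 to 0.43) in LM2 and, in parental cells, 0.35 (0.19 to 0.57). Reads were 12 for inclusion and 14 for exclusion in LM2, and 10 and 8 in parental cells, so both isoforms were present in both lines. The odds ratio was 0.692 (0.173 to 2.69), and a difference was not detectable at this depth. At the matching place in GIT2, the 6-nt exons had 0 inclusion reads in either line, against 5 exclusion reads in LM2 and 14 in the parental line. A count of 0 (3 reads of the total as its limit) allows a share of inclusion reads of up to 60% in LM2 and 21.4% in parental cells, so little can be said of these exons.

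The 9-nt exons of ASAP1 and ASAP2 were skipped at far greater depth. In ASAP1, 0 inclusion reads stood against 184 exclusion reads in LM2 and 349 in the parental line, which allows up to 1.63% and 0.86% of informative reads. In ASAP2, 0 stood against 192 and 337, which allows up to 1.56% and 0.89%. The deposited level was 0.00 in both lines for both exons. A 102-nt exon of ASAP1, at 0.04 and 0.03, had 0 informative reads in LM2 and 1 in the parental line. In the transcripts that skip them, the junction follows codon 303 of 1129 in ASAP1-202 and codon 283 of 1006 in ASAP2-201. Of the 8 ARF GAP exons of 30 nt or less, 2 had at least 1 inclusion read, the GIT1 27-nt and the ACAP2 21-nt exon.

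ARAP1 is an ARF GAP that acts in receptor trafficking and actin organisation. Its 33-nt exon, codons 1319 to 1329 of 1450 in ARAP1-204, was mostly skipped in both lines. The level was 0.12 (0.09 to 0.15) in LM2 and, in parental cells, 0.06 (0.04 to 0.09), with intervals that meet at 0.09, and the authors' deposited table gave it a Bayes factor of 2.03. LM2 had 60 inclusion, 350 exclusion and 166 both-isoform reads, and parental cells had 15, 184 and 155. Inclusion reads per both-isoform read had a ratio between the lines of 3.72 (1.99 to 7.37), above those of the called ASAP1 and ASAP2 exons. Exclusion reads per both-isoform read were also higher in LM2, at 2.11 against 1.19. The odds ratio was 2.10 (1.14 to 4.10), and Fisher's exact test gave p = 0.0124 and an adjusted p of 0.356. Its difference in level of 0.06 is under the 0.2 needed for a call. The 183-nt exon of ARAP1, codons 604 to 664, was kept in both lines, at 0.92 (0.85 to 0.96) and 0.91 (0.83 to 0.97).

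AGAP3, an ARF GAP with a GTPase-like and a PH domain, had a lower exon level in LM2 that was not called. Its 138-nt exon, codons 556 to 602 of 911 in AGAP3-202, had a level of 0.82 (0.75 to 0.90) in LM2 and, in parental cells, 0.93 (0.86 to 0.98), and the authors' deposited table gave it a Bayes factor of 1.31. Reads were 142 for inclusion, 14 for exclusion and 79 for both in LM2, and 129, 3 and 88 in parental cells. The odds ratio was 0.237 (0.0427 to 0.876), and Fisher's exact test gave p = 0.0219 and an adjusted p of 0.466. Inclusion reads per both-isoform read pointed the other way, at 1.80 in LM2 and 1.47 in parental cells. As a share of inclusion plus both-isoform reads, inclusion reads differed by 0.0481, LM2 minus parental. The 171-nt exon next to it lies between the flanking exons of the 138-nt event, so the exclusion reads of that event lack both exons. In the event of the 171-nt exon, the 138-nt exon is the downstream flank. It had 0 exclusion reads in either line and levels of 0.93 and 0.90. A 159-nt exon of codons 324 to 376 was kept, at 0.95 and 0.98.

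A 48-nt and a 226-nt exon of AGAP3 start at the same base, chr7:151120520, so their reads are not independent. The 48-nt exon was at 0.10 (0.02 to 0.23) in LM2 and, in parental cells, 0.24 (0.07 to 0.41), on 1 inclusion and 17 exclusion reads against 4 and 10. The 226-nt exon, untranslated or in non-coding transcripts, was at 0.16 (0.10 to 0.24) and 0.14 (0.10 to 0.20), on 24 and 28 reads against 29 and 48. In both exons the intervals of the lines overlap.

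**Figure D3:**
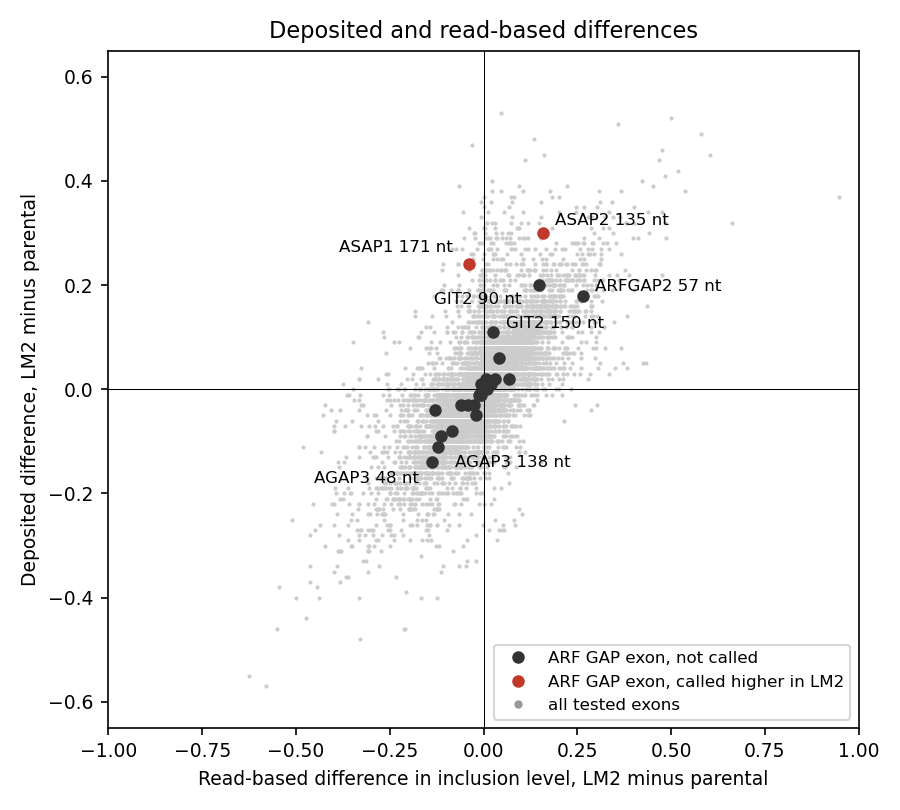
Deposited difference in inclusion level (y axis, LM2 minus parental) against the difference from inclusion and exclusion reads alone (x axis, same direction), for the 24 tested ARF GAP exons (large points, red where called) and all 14109 tested exons (grey). Of the 7 ARF GAP exons with a deposited difference of at least 0.1, 6 had the same sign on both axes, and ASAP1 did not.

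ARFGAP2 and ARFGAP3 are close relatives that act with the COPI coat. Their matching exons of 132 nt, ARFGAP2 at chr11:47175182-47175313 and ARFGAP3 at chr22:42835362-42835493 (both minus strand, hg38), hold codons 89 to 132 of 521 in ARFGAP2-205 and codons 88 to 131 of 516 in ARFGAP3-201. They are shown side by side because the paralogs hold them at matching codons.
ARFGAP2 132-nt exon: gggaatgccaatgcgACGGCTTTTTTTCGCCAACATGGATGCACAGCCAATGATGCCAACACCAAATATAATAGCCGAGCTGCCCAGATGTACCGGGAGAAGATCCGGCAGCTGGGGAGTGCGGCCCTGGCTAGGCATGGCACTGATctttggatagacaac
ARFGAP3 132-nt exon (b): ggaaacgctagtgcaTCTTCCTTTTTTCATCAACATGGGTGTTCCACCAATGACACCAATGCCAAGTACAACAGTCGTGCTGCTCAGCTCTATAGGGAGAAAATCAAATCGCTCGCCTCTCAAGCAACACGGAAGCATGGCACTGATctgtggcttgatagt
The exons were identical at 85 of 132 positions (64.4%), and the 84-nt exons that follow them at 33 of 84 (39.3%). The 132-nt exon was at 0.92 (0.83 to 0.98) in LM2 and, in parental cells, 0.92 (0.85 to 0.98) in ARFGAP2, and at 0.92 (0.80 to 0.99) and 0.97 (0.89 to 1.00) in ARFGAP3. The ARFGAP2 exon had 155 inclusion and 3 exclusion reads in LM2 and 152 and 3 in parental cells, and the ARFGAP3 exon 96 and 1, and 145 and 0. These events are not alike. The ARFGAP3 event ends at the adjacent 84-nt exon, but the ARFGAP2 event ends at a 53-nt exon further on. Exclusion reads of the ARFGAP2 event therefore skip the 84-nt exon and others as well. The 84-nt exons were kept too, at 0.94 and 0.92 in ARFGAP2 and at 0.94 and 0.97 in ARFGAP3.

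The 57-nt and 42-nt exons of ARFGAP2 had intermediate levels and were thinly covered. The 57-nt exon, codons 188 to 207, was at 0.55 (0.25 to 0.83) in LM2 and, in parental cells, 0.37 (0.16 to 0.64), on 9 inclusion and 2 exclusion reads against 6 and 4. The 42-nt exon was at 0.20 (0.07 to 0.41) and 0.29 (0.11 to 0.55), on 4 and 9 reads against 5 and 6. A 232-nt form that shares an end with the 132-nt exon was at 0.84 and 0.85, and counts the same 3 exclusion reads in each line, beside 105 inclusion reads in LM2 and 120 in the parental line. In these exons the intervals of the lines overlap over most of their width. The ARFGAP2 52-nt exon differed by 0.21, from 0.59 (0.36 to 0.86) in parental cells to 0.80 (0.55 to 0.99) in LM2, but had 0 exclusion reads and was not tested. It shares an end with a 73-nt exon, which between the same flanking exons was at 0.95 in LM2 and 0.96 in parental cells. The remaining tested exon of ARFGAP3 outside the matching pairs, 132 nt in codons 355 to 399, was at 0.96 and 0.95.

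ARFGAP1, the founding Golgi ARF GAP, had 6 listed exons, of which 3 were tested. The 110-nt exon was kept, at 0.99 in both lines on 363 and 487 inclusion reads. The 87-nt and 239-nt exons were mostly skipped, at 0.03 and 0.01, and at 0.02 and 0.05. For the 239-nt exon, 10 inclusion and 98 exclusion reads in LM2 stood against 19 and 78, and Fisher's exact test gave p = 0.0443 and an adjusted p of 0.634. A 101-nt exon was kept, at 0.94 and 0.92, and a 30-nt exon had 0 inclusion reads beside 6 and 11 exclusion reads. The widest difference of any ARF GAP exon was in a 211-nt exon at chr20:63274000-63274210, which is untranslated or in a non-coding transcript. Its level was 0.08 (0.01 to 0.29) in LM2 and, in parental cells, 0.62 (0.39 to 0.83), and the authors' deposited table gave it a Bayes factor of 92.97. It had 1 inclusion and 3 exclusion reads in LM2 and 12 and 2 in parental cells. With 4 informative reads in LM2 it was below the read minimum of 10 and was not tested.

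ACAP2, an endosomal ARF GAP that acts on ARF6, mostly skipped its alternative exons in both lines. The 21-nt exon, inserted after codon 285 of the 778 of ACAP2-201, was at 0.02 and 0.03, with 0 inclusion and 33 exclusion reads in LM2 and 1 and 42 in parental cells. The 105-nt exon was at 0.01 (0.00 to 0.04) and 0.05 (0.02 to 0.10), on 0 and 25 reads against 3 and 10, and Fisher's exact test gave p = 0.0339 and an adjusted p of 0.561. A 94-nt exon was at 0.07 and 0.05. A 12-nt exon had 0 inclusion reads and 31 and 43 exclusion reads, and a 58-nt exon was kept, at 0.97 and 0.99.

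Across the 24 tested exons, 7 had a level above 0.9 in both lines, 5 were below 0.1 in both, and 12 were between 0.1 and 0.9 in at least 1 line. Of those 12, 10 were a multiple of 3 in length and 10 were coding. Among all 24, 19 were a multiple of 3 (79.2%), against 41.8% of all tested exons, and 21 were coding. The median length was 121 nt, against 119 nt. The alternative exons of these genes were thus mostly frame-preserving, as a description with no test. Of the 20 exons of member transcripts that were not tested, 5 had fewer than 10 informative reads in a line, 12 had no exclusion read and 3 had no inclusion read. The 12 without exclusion reads had levels from 0.59 to 0.99 and differences from -0.07 to 0.21. The median number of informative reads per tested exon was 89 in LM2 and 104 in parental cells, and the median interval width 0.15 and 0.11.

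**Figure D4:**
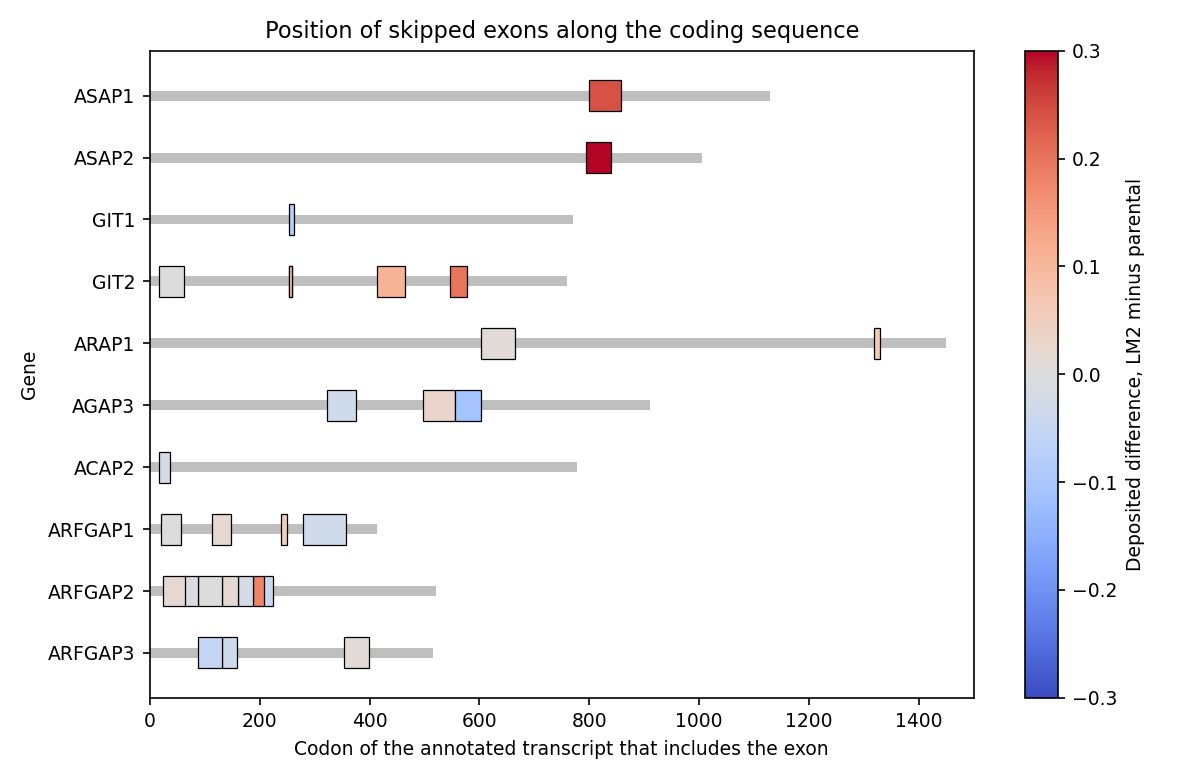
Skipped exons (boxes, drawn at least 5 codons wide) along the coding sequence (grey bars, x axis in codons of an annotated transcript that includes the exon) of each gene (y axis), coloured by the deposited difference in level, LM2 minus parental. The ASAP1 exon spans codons 801 to 858 and the ASAP2 exon codons 795 to 840; exons outside a complete coding sequence are not drawn, and the GIT2 6-nt exons share a place.

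Reads of all classes at a gene's best covered event give a view of how much of its RNA was sequenced. They are taken here as the ratio of LM2 to parental after scaling to the listed reads of each line. In the ARF GAP genes most of these reads fit neither isoform. ARAP1 stood at 2.09 (exact 95% interval 1.94 to 2.25, counting error only), on 1812 reads in LM2 and 1129 in parental cells, past the 2-fold mark used as a call. In all, 2.5% of 10137 genes were past it upward and 9.97% downward. The other ARF GAP genes lay between 0.700 for ASAP1 and 1.27 for ARFGAP2, and 0 of them were called. ASAP1 had 4656 reads in LM2 and 8644 in parental cells, and ASAP2 3034 and 4403, a ratio of 0.896. GIT1 stood at 0.838, GIT2 at 0.779 and AGAP3 at 1.21. From inclusion and exclusion reads alone the GIT1 ratio was 1.69, in the opposite direction, and the ACAP2 ratio moved from 1.02 to 0.712. By the same reads ASAP1 stood at 0.951 and ASAP2 at 0.668, so ASAP1 was no longer the lower of the pair. The median gene was at -0.12 on the log2 scale. The ARAP1 ratio was 1.36 from inclusion and exclusion reads and 1.83 as the median over its events, both under 2. In bulk samples like these, fewer cells with a transcript and less RNA per cell cannot be told apart.

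**Figure D5:**
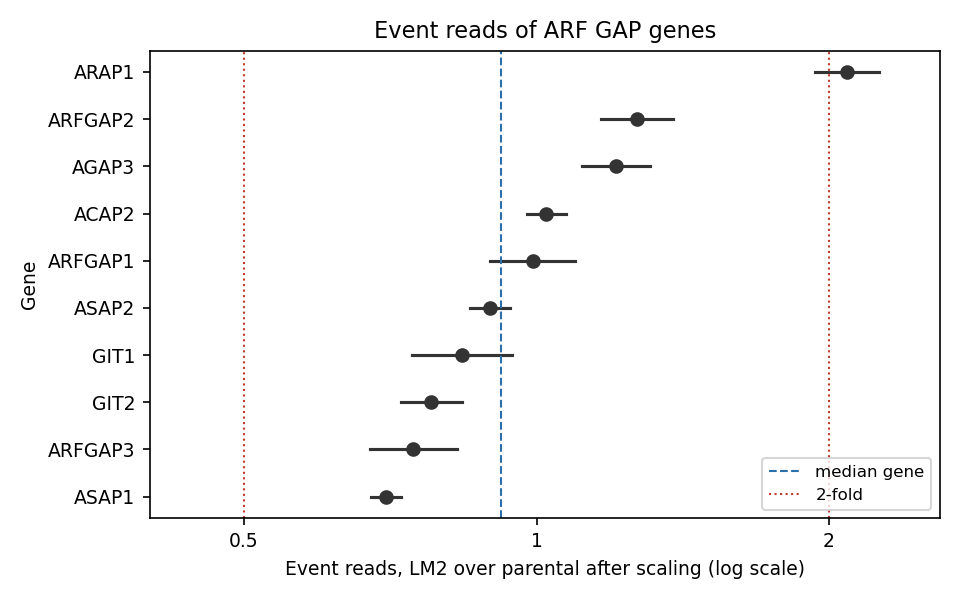
Ratio of event reads, LM2 over parental, on a log scale (x axis) for the 10 ARF GAP genes (y axis), with exact 95% intervals for counting error only; the dashed line is the median gene and the dotted lines mark 2-fold. ARAP1 was at 2.09 and ASAP1 at 0.700.

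The wider ARF pathway was compared with the same rule. Other ARF GAPs had 24 tested exons, ARF and ARF-like GTPases 25 and ARF exchange factors 10, with 0 called in each, and effectors and coats had 1 of 50. Adhesion partners of ASAP and GIT proteins had 3 of 60 called, all higher in LM2, against 1.25% of all tested exons. The paxillin exon, 102 nt of PXN, the focal adhesion adaptor that GIT proteins bind, was at 0.39 (0.31 to 0.48) in LM2 and, in parental cells, 0.19 (0.13 to 0.26). It had 71 inclusion and 39 exclusion reads in LM2 and 38 and 50 in parental cells, an odds ratio of 2.38 (1.30 to 4.43), so reads and level pointed the same way. The other called exons were 2 of PTK2, the focal adhesion kinase that binds ASAP1, of 63 nt (0.94 and 0.67) and 89 nt (0.61 and 0.33). In the 63-nt exon there was 1 exclusion read in each line, and in the 89-nt exon 5 and 2, with odds ratios of 2.20 (0.0278 to 174.0) and 0.859 (0.0791 to 5.48). GOLGA4, a Golgi tether, had the lower exon, of 63 nt, at 0.18 (0.10 to 0.29) and 0.39 (0.30 to 0.50).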

How the data were processed

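Total RNA of 2 samples per line was made into ScriptSeq v2 libraries, per the labels' protocols. Per the submitters' processing notes, reads were aligned to hg38 by STAR 2.7. MISO quantified the events, per the file headers. Its version, settings and event annotation, and whether and how the samples of a line were joined, are not stated in the sources used here. Per the file headers, the authors deposited inclusion levels as a fraction with interval bounds, and read counts per event class. The authors' deposited table of the comparison gives the difference as a score, LM2 minus parental, and the Bayes factor as a ratio.

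For each exon the event richest in informative reads was used. The read-based level is the share of inclusion reads, first divided by 2, in their sum with exclusion reads. Fisher's exact tests and intervals used SciPy 1.17.1 (Python 3.11.15). The read test was tested on simulated data: it missed most exons shifted by 0.2, and found most shifted by 0.29, a size set after the first was seen. Shifted exons had at least 50 informative reads in each line and read-based levels within 0.2 of the middle of the scale. Codons and exons came from GENCODE 29. The named exons were every called exon, the best covered tested exon of each gene and tested exons with a level from 0.1 to 0.9 in either line. Exons named beyond that rule were chosen after their values were seen. The member genes, lists and rules were chosen with earlier results of these data known. Alternatives changed the Bayes factor, difference, read minimum, event choice, level measure and scaling.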

Additional observations from a re-analysis of the deposited data

How the results depend on the processing

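No paired analysis was possible because each line's table carries no replicate numbers, and no replicate could be left out. ARF GAP exons called numbered 2, and 1 with a Bayes factor of at least 20, 1 with a difference of at least 0.3 and 1 when intervals had to be apart. With no read minimum they numbered 3, of which 1, the ARFGAP1 211-nt exon, was lower in LM2. Over all exons, 176 were called, 292 with a difference of at least 0.1, 76 with at least 0.3 and 290 with no read minimum. In the pathway lists 4 were called, and 0 with a difference of at least 0.3. The ASAP1 171-nt difference of 0.24 became -0.0379 from inclusion and exclusion reads; the cause was not tested. Of the 17 named exons, 7 differed by at least 0.1. Inclusion reads over inclusion plus both-isoform reads, a measure chosen after seeing the data, could be computed for 13. By it 4 differed by at least 0.1, among them the ARAP1 33-nt exon, whose deposited difference of 0.06 is not among the 7. ARAP1 was the 1 gene past 2-fold in event reads, and 0 were with informative reads or the median over events. Single exon values stayed within the range that the deposited intervals allow for the difference in 46 of 51 settings, moved in 4 and reversed in 1. Only a called exon could be counted as reversed. Exons not called changed sign as well. The AGAP3 138-nt difference, for example, went from -0.11 to 0.0481 by inclusion reads over inclusion plus both-isoform reads. Event-read ratios of single genes stayed within their counting interval in 13 of 30 settings and moved beyond it in 17. Few exclusion reads limit most of these exons.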

Other observations

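The 3 exons inside the bounds of ARAP1 that belong to STARD10, a lipid transfer protein gene, were not tested. Their levels in LM2 and parental cells were 0.94 and 0.89 for the 53-nt exon, 0.41 and 0.34 for the 118-nt exon, and 0.33 and 0.26 for the 54-nt exon. The first and second had 0 exclusion reads in either line, and the third had 0 inclusion reads and 1 exclusion read in each.

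The AGAP3 226-nt exon had a second event with other flanking exons, in which its level was 0.55 in LM2 and 0.60 in parental cells, beside 0.16 and 0.14 in the event used above. The gap between events of this exon was wider than the gap between the lines in either event.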
